A study of Arabidopsis thaliana with 15 samples.

Results

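The microRNAs miR160 and miR167 and the AUXIN RESPONSE FACTOR (ARF) mRNAs that they target were followed in leaves of Arabidopsis thaliana. The 8 members are 3 rows of the small RNA table, chosen by name (ath-miR160a-5p, ath-miR167a-5p and ath-miR167d), and 5 rows of the RNA table, namely ARF6 (AT1G30330), ARF8 (AT5G37020), ARF10 (AT2G28350), ARF16 (AT4G30080) and ARF17 (AT1G77850). They were 8 of 73621 rows in both tables together, and all of them passed the filter on low counts. Leaves came from 3-week-old untreated plants of 2 genotypes. The prp4k3 line carries amiR-PRP4K3, by its name an artificial microRNA against PRP4K genes, and Col-0 is the wild-type accession. Each genotype had 3 RNA-seq libraries of total RNA and 3 small RNA-seq libraries. A further 3 RNA-seq samples of se-2 are listed in the labels and were not analysed here. Nothing in the labels says that libraries came from separate plants or that prp4k3 was more than 1 transgenic line, so p-values measure the spread between these libraries only, which may be technical.

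ARF proteins bind promoters of auxin-regulated genes. ARF6 and ARF8 belong to the activating class, and their mRNAs pair with miR167, a miRNA best known from flower maturation and from the growth of stems and roots. ARF10, ARF16 and ARF17 belong to a class described as repressing, and their mRNAs pair with miR160, which is needed for leaf shape, seed germination and root cap formation. Auxin relieves ARF activators by sending their partners, the Aux/IAA repressors, to degradation through the TIR1/AFB receptors. Plant miRNAs of this kind usually cut their target mRNA, so a change of miRNA level is commonly examined beside the level of its targets.

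RNA-seq totals were between 16041754 and 16955629 counts in prp4k3 and between 18305640 and 19344157 in Col-0, and small RNA totals were between 305617 and 636914 counts in prp4k3 and between 792586 and 1156591 in Col-0. Levels are CPM (reads of a gene per 1e6 reads of its library) scaled with TMM factors, and a log2 fold change is prp4k3 over Col-0 from edgeR's quasi-likelihood test, with a call wherever the p adjusted by Benjamini-Hochberg was below 0.05. The scaling matters for the mRNAs. Plastid-encoded genes held 37.81 to 39.51% of RNA-seq counts in prp4k3 and 47.97 to 50.85% in Col-0, and the median log2 fold change over the tested features was 0.86 when libraries were scaled by total counts, against 0.02 with TMM. Changes of mRNAs are given on the TMM scale unless total-count scaling is named. Summed leaf markers (RBCS1A, LHCB1.3, LHCB2.1, CA1 and GLK2) lay between 12400 and 13080 CPM in prp4k3 and between 40040 and 42870 CPM in Col-0, and none of them was at 0 in a library; the part of this difference in the ARF values was not tested. In bulk leaves, fewer cells of a type and less RNA per cell cannot be told apart. As a check of the line, the locus AT3G25840 fell by 0.68 ± 0.13 on the log2 scale (adjusted p = 0.00116), but stood at 0.16 under total-count scaling (adjusted p = 0.28), and the locus AT1G13350 was not called (-0.41 ± 0.18, adjusted p = 0.0646). SE, the SERRATE gene of miRNA processing, rose by 0.34 ± 0.11 (adjusted p = 0.0233), a call lost without prp4k3 replicate 1, prp4k3 replicate 3 or Col-0 replicate 1 (adjusted p = 0.0697, 0.0577 and 0.0897).

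One small RNA library stood apart. Replicate 2 of prp4k3 differed from replicates 1 and 3 of its genotype with a chi-square per degree of freedom of 248 and 253. Those replicates differed from each other with 7.98 and the Col-0 pairs with 33.6 to 76.7. A chi-square grows with depth, and prp4k3 replicates 1 and 3 were the shallowest libraries (346060 and 305617 counts). The SD of the log2 difference was 0.671 and 0.712 for the pairs with prp4k3 replicate 2. It was 0.398 for prp4k3 replicates 1 and 3 and 0.338 to 0.439 for the Col-0 pairs. The TMM factor of prp4k3 replicate 2 was 0.816, against 1.14 in both other prp4k3 libraries. The results of the miRNA members are therefore given with and without it.

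None of the miRNA members was called as different between the genotypes when all 6 small RNA libraries were used. The background share of called miRNAs in that comparison was 37.2% of the tested rows, with 18.6% called higher and 18.6% called lower. With total-count scaling it was 26.0%, and again none of the 3 members was called. Without prp4k3 replicate 2, ath-miR160a-5p was called higher and ath-miR167a-5p called lower, and the background share was then 42.4%, with 21.4% called higher and 21.0% called lower. The calls of both miRNAs thus depended on whether that library was kept.

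ath-miR160a-5p, the guide strand that pairs with ARF10, ARF16 and ARF17, had 1501, 714 and 1425 CPM in prp4k3 replicates 1, 2 and 3, against 786, 954 and 1129 CPM in Col-0. Replicates 1 and 3 of prp4k3 lay above every Col-0 library and replicate 2 lay below all of them, so the genotypes overlapped. The means were 1213 ± 434 CPM in prp4k3 and 956.5 ± 172 CPM in Col-0 (SD, n = 3 each). The log2 fold change was 0.34 ± 0.28 (SE), with a 95% interval of -0.28 to 0.96 (adjusted p = 0.349). Without prp4k3 replicate 2 it was 0.64 ± 0.16 (adjusted p = 0.00266), while the other alternatives gave adjusted p values up to 0.479. The rows ath-miR160b and ath-miR160c-5p had almost the same counts as ath-miR160a-5p, 1457 reads each in prp4k3 and 2815 each in Col-0, against 1459 and 2823 for ath-miR160a-5p, and they carry no separate information.

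ath-miR167a-5p, the guide strand that pairs with ARF6 and ARF8, was the most abundant member. It had 23926, 32135 and 24233 CPM in prp4k3 and 26450, 34147 and 36180 CPM in Col-0. Replicates 1 and 3 of prp4k3 lay just below the lowest Col-0 library, and replicate 2 lay inside the Col-0 range. The log2 fold change was -0.27 ± 0.22, with a 95% interval of -0.77 to 0.24 (adjusted p = 0.359). It was -0.40 ± 0.13 without prp4k3 replicate 2 (adjusted p = 0.0132), but 0.11 without replicate 1 and 0.05 without replicate 3 of that genotype (adjusted p = 0.816 and 0.921). Its direction therefore depended on which prp4k3 library was kept. The row ath-miR167b followed it, with 34579 reads in prp4k3 and 94702 in Col-0, against 34568 and 94700.

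ath-miR167d, a member of the same family from another locus, had 1126, 924 and 1255 CPM in prp4k3 and 1056, 1474 and 1937 CPM in Col-0. The lowest Col-0 library lay among the prp4k3 libraries. The log2 fold change was -0.44 ± 0.23, with a 95% interval of -0.96 to 0.09 (adjusted p = 0.167), and it was below 0 and not called in each of 15 alternatives. Its size depended on single libraries, at -0.19 without Col-0 replicate 3 and -0.20 without prp4k3 replicate 1 (adjusted p = 0.544 and 0.598). Without prp4k3 replicate 2 it was -0.30 ± 0.19 (adjusted p = 0.211).

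**Figure D1:**
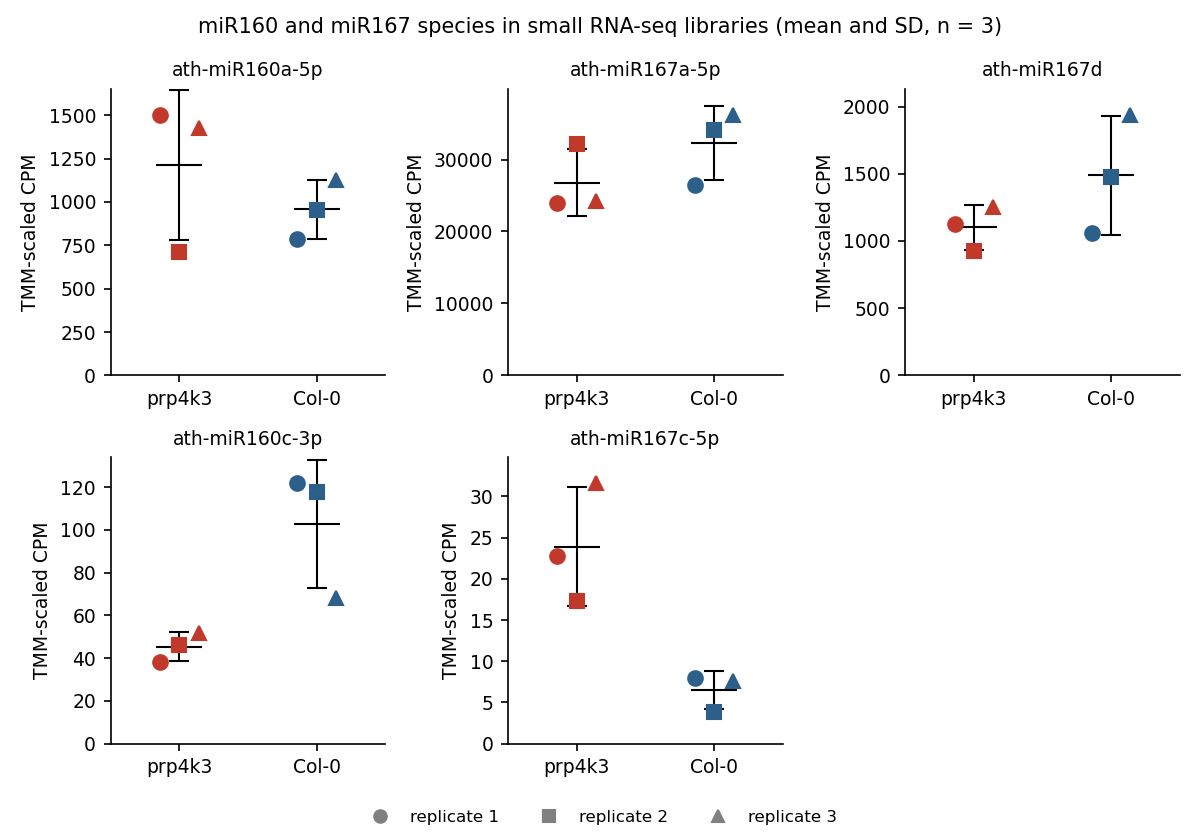
TMM-scaled CPM (vertical axes, each from 0) of 5 miRNA species in the 3 prp4k3 and 3 Col-0 small RNA libraries, with points for libraries and bars for the mean and SD. Replicate 2 of prp4k3 lies apart from the other prp4k3 libraries for ath-miR160a-5p (714 CPM) and ath-miR167a-5p (32135 CPM), while the genotypes do not overlap for ath-miR160c-3p and ath-miR167c-5p.

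Among the less abundant rows of the families, ath-miR160c-3p was called lower and ath-miR167c-5p higher. ath-miR160c-3p, the opposite strand of the miR160c duplex, had 38.0, 46.2 and 51.7 CPM in prp4k3 and 122, 118 and 68.0 CPM in Col-0. The genotypes did not overlap, as in 56.3% of the tested miRNA rows. It fell by 1.18 ± 0.30 on the log2 scale (adjusted p = 0.0122). The call was lost without prp4k3 replicate 1 (-0.78, adjusted p = 0.128) and without Col-0 replicate 1 (-0.91, adjusted p = 0.0717). ath-miR167c-5p, a rare relative of miR167, moved the other way, with 9, 9 and 11 reads in prp4k3 and 9, 3 and 8 reads in Col-0. On the scaled axis these were 22.8, 17.3 and 31.6 CPM in prp4k3, all above 7.94, 3.80 and 7.66 CPM in Col-0. It rose by 1.77 ± 0.41 (adjusted p = 0.00799) and kept the call in 14 alternatives, though it rests on 29 reads in prp4k3 and 20 in Col-0. It had no result where identical miRNA rows were kept once. The row passed the filter on low counts only through its prp4k3 libraries, where it was high, which limits what the call shows. The opposite strands ath-miR160a-3p and ath-miR167a-3p were not called, at -0.09 ± 0.25 and -0.19 ± 0.22 (adjusted p = 0.759 and 0.492), and ath-miR167c-3p did not pass the filter, with 7 reads in prp4k3 and 9 in Col-0.

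The loci that give rise to these miRNAs were scarcely seen in the RNA-seq libraries. Of 7 MIR160 and MIR167 genes, 2 passed the filter on low counts. MIR167A had 12, 20 and 16 counts in prp4k3 and 40, 22 and 36 in Col-0, or 0.524, 0.929 and 0.733 CPM in prp4k3 and 2.95, 1.49 and 2.67 CPM in Col-0. It fell by 1.69 ± 0.33 on the log2 scale (adjusted p = 0.0013) and also fell under total-count scaling, by 0.85 (adjusted p = 0.034). MIR167D had 3.14, 2.70 and 3.80 CPM in prp4k3 and 6.35, 5.02 and 5.85 CPM in Col-0. It fell by 0.83 ± 0.18 (adjusted p = 0.0024), but stood at 0.01 under total-count scaling (adjusted p = 0.969). Both loci had prp4k3 libraries below every Col-0 library on the TMM scale, where 70.5% of all tested features did not overlap and 31.9% were called lower. MIR160A and MIR160C had 0 counts in prp4k3 and 1 and 3 counts in Col-0, MIR167B had 3 in prp4k3 and 1 in Col-0, and MIR160B and MIR167C had 0 counts in all libraries. A count of 0 in 1 library allows up to 0.155 to 0.187 CPM before TMM scaling (3 counts, counting error only).

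The target mRNAs did not move as 1 group. With TMM scaling, ARF8 and ARF10 fell, ARF16 rose, and ARF6 and ARF17 were not called. The ARF targets of miR160 thus differed in direction on this scale. Those of miR167, ARF6 and ARF8, both stood below 0, and no difference between them was shown. Called features made up 65.8% of all tested features, with 33.9% called higher and 31.9% called lower, so 3 called of 5 is no more than the background. Under total-count scaling 3 of the 5 mRNAs were called higher and 0 lower, where 76.9% of all tested features were called, 67.1% higher and 9.81% lower. The prp4k3 and Col-0 libraries did not overlap for ARF6, ARF8, ARF10 and ARF16, as for 70.5% of all tested features. The median log2 fold change of the 5 mRNAs was -0.33, against 0.02 over all tested features.

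Of the miR167 targets, ARF8 had 20.1, 25.8 and 16.9 CPM in prp4k3 and 32.4, 35.8 and 35.0 CPM in Col-0. Every prp4k3 library lay below every Col-0 library, with replicate 2 the highest of its genotype. ARF8 fell by 0.72 ± 0.15 on the log2 scale (adjusted p = 0.00234), with an interval of -1.06 to -0.37. ARF6 had 10.2, 9.01 and 7.69 CPM in prp4k3 and 11.4, 12.2 and 10.3 CPM in Col-0. The highest prp4k3 library lay barely below the lowest Col-0 library, and the log2 fold change of -0.33 ± 0.14 did not pass (adjusted p = 0.0631, interval -0.66 to -0.01). It passed without prp4k3 replicate 1 (-0.44, adjusted p = 0.0401) or without Col-0 replicate 3 (-0.41, adjusted p = 0.0486). Under total-count scaling both genes stood above 0, ARF6 at 0.51 (adjusted p = 0.0108) and ARF8 at 0.13 (adjusted p = 0.471), and below the median of all features on that scale.

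ARF6 and ARF8 are flower regulators, so flower and shoot apex markers are given beside them. All 8 markers of that list had a count in some library. Their summed level was 19.03, 8.97 and 10.1 CPM in prp4k3 and 8.12, 11.4 and 9.18 CPM in Col-0, and only prp4k3 replicate 1 lay outside the Col-0 range on the high side. The members of the list did not move together. Of its 8 genes 3 were tested, with 2 called higher and 1 lower, where 33.9% of all tested features were called higher and 31.9% lower. STM, a gene of the shoot meristem, fell by 0.96 ± 0.24 on the log2 scale, with 4.28, 2.46 and 2.24 CPM in prp4k3 and 5.24, 6.11 and 6.15 CPM in Col-0 (adjusted p = 0.00599), but stood at -0.11 under total-count scaling (adjusted p = 0.687). KNAT1, another meristem gene, rose by 0.89 ± 0.27 (adjusted p = 0.0164), and AP1, a floral identity gene, rose by 3.904 ± 0.79 (adjusted p = 0.00173), with 42, 11 and 25 counts in prp4k3 and 0, 2 and 1 in Col-0. AP1 passed the filter on low counts only through the prp4k3 libraries, where it was high, which limits what its call shows. Among the untested genes, the petal and stamen gene PI had 66, 9 and 20 counts in prp4k3 and 2, 2 and 0 in Col-0. AP3, of the same organs, had 32, 5 and 13 counts in prp4k3 and 0, 1 and 0 in Col-0. PI, AP3 and AP1 thus stood above Col-0 in every prp4k3 library, which the summed level does not show. AG had 42 counts in prp4k3 and 18 in Col-0. CLV3 was at 0 in all 3 prp4k3 libraries, and WUS was at 0 in all 3 Col-0 libraries. The part of flower or apex tissue in the ARF6 and ARF8 values was not tested.

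Another described target of miR167 was called higher, unlike ARF8. IAR3 (AT1G51760), an enzyme that frees auxin from an amino acid conjugate, had 40.3, 38.3 and 44.2 CPM in prp4k3 and 15.9, 10.5 and 20.4 CPM in Col-0. The genotypes were far apart. It rose by 1.39 ± 0.20 on the log2 scale (adjusted p = 0.000221) and stood 2.24 higher when scaled by total counts.

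**Figure D2:**
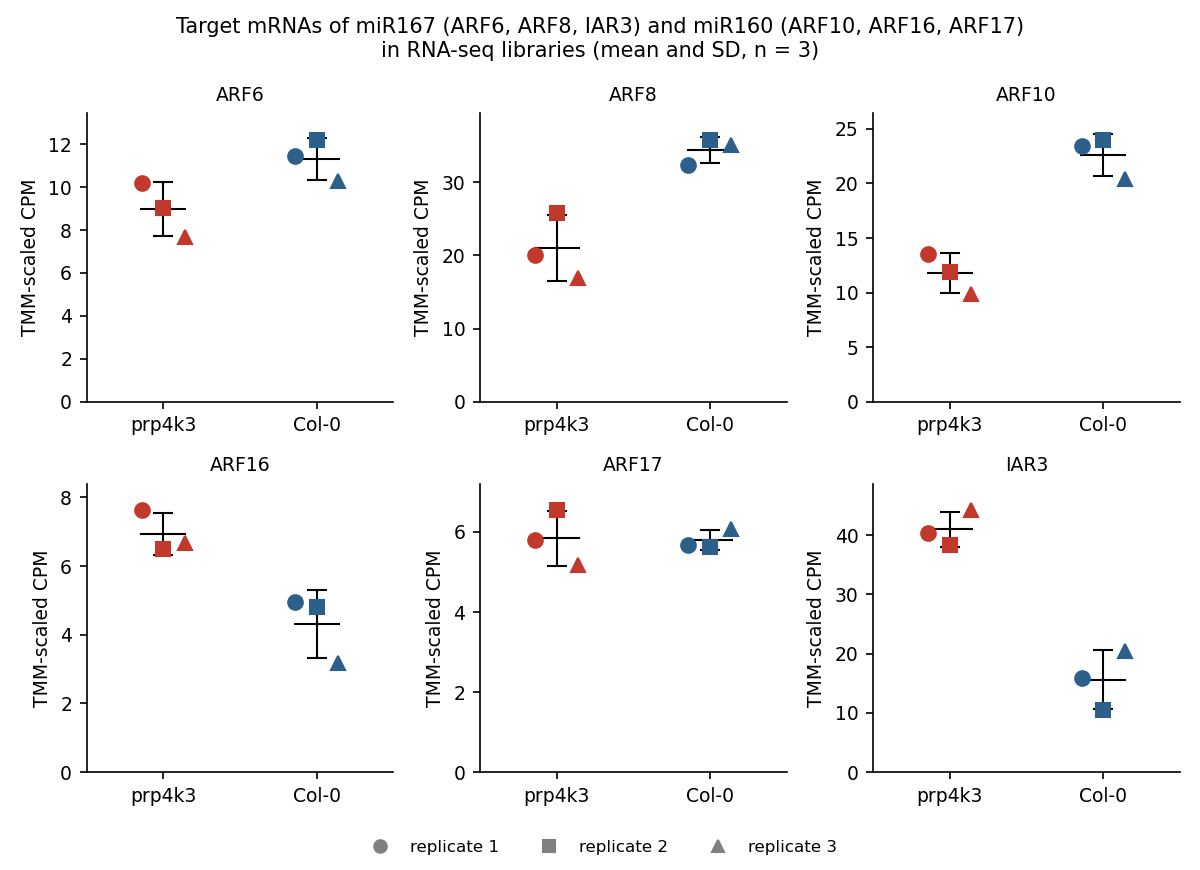
TMM-scaled CPM (vertical axes, each from 0) of 6 target mRNAs in the 3 prp4k3 and 3 Col-0 RNA-seq libraries, with points for libraries and bars for the mean and SD. ARF8 and ARF10 lie lower in prp4k3 and ARF16 and IAR3 higher on this scale, ARF6 libraries nearly touch, and ARF17 libraries overlap; under total-count scaling ARF8 stood at 0.13 and ARF6 at 0.51.

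Of the miR160 targets, ARF10 had 13.5, 11.9 and 9.89 CPM in prp4k3 and 23.4, 24.0 and 20.4 CPM in Col-0. The genotypes did not overlap. ARF10 fell by 0.94 ± 0.14 on the log2 scale (adjusted p = 0.000238), the largest fall of the members. It stood at -0.10 under total-count scaling (adjusted p = 0.552), and at -0.36 with total-count scaling of a table without organelle and rRNA genes (adjusted p = 0.0441). ARF16, which acts together with ARF10 in the root cap, had 7.64, 6.51 and 6.69 CPM in prp4k3 and 4.94, 4.82 and 3.18 CPM in Col-0. Every prp4k3 library lay above every Col-0 library. ARF16 rose by 0.68 ± 0.18 (adjusted p = 0.00826), stood 1.52 higher with total-count scaling (adjusted p = 3.98e-05) and was called higher in all 15 alternatives. The 6 root markers summed to between 71.9 and 85.3 CPM in prp4k3 and between 62.1 and 74.4 CPM in Col-0, with RHD6 at 0 in all libraries. BGLU23 was the largest part of the sum, at 52.8 CPM in prp4k3 and 32.5 CPM in Col-0. The markers did not move together. BGLU23 rose by 0.70 (adjusted p = 0.00062), SHR fell by 0.61 (adjusted p = 0.00312) and SCR was not called (-0.55, adjusted p = 0.0797). The part of root tissue in the ARF10 and ARF16 values was not tested.

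ARF17, which lacks the interaction domain that most ARF proteins carry at their end, had 5.81, 6.55 and 5.17 CPM in prp4k3 and 5.68, 5.63 and 6.07 CPM in Col-0. The prp4k3 libraries spanned the Col-0 libraries, and the log2 fold change was 0.01 ± 0.15 (adjusted p = 0.947), with an interval of -0.32 to 0.34. Under total-count scaling ARF17 was called higher, at 0.85 ± 0.15 (adjusted p = 0.000446), where the median of all tested features was 0.86.

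Ratios of reads between 2 members of the same library do not depend on the scaling, and 6 of them were compared with a two-sided exact permutation test of 3 against 3 libraries, whose smallest p is 0.1. They are ratios of reads, not corrected for transcript length. The ratio of ARF10 to ARF16 showed the widest gap. It was 1.77, 1.83 and 1.48 in prp4k3 and 4.70, 4.96 and 6.36 in Col-0, so every prp4k3 library had less ARF10 per ARF16 read than every Col-0 library. The mean log2 ratio was 0.75 ± 0.16 in prp4k3 and 2.40 ± 0.23 in Col-0 (SD, n = 3), a difference of -1.65 (exact permutation p = 0.1, and 0.2 adjusted over the 6 ratios). The difference lay between -1.74 and -1.52 when any 1 library was left out.

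The ratio of ARF10 to ARF17 also did not overlap, with 2.33, 1.81 and 1.91 in prp4k3 and 4.10, 4.25 and 3.35 in Col-0 (log2 difference -0.95, exact permutation p = 0.1, adjusted 0.2). The ratio of ARF17 to ARF16 was 0.761, 1.01 and 0.775 in prp4k3 and 1.15, 1.17 and 1.90 in Col-0 (log2 difference -0.70, exact permutation p = 0.1, adjusted 0.2), and the difference was -0.46 without Col-0 replicate 3 (exact permutation p = 0.2). In these libraries ARF10 was lower relative to both other miR160 targets in all 3 prp4k3 libraries, though no ratio passed a threshold of 0.05. For the miR167 pair the ratio of ARF8 to ARF6 overlapped, with 1.97, 2.86 and 2.20 in prp4k3 and 2.83, 2.93 and 3.39 in Col-0 (log2 difference -0.39, exact permutation p = 0.2, adjusted 0.3).

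Among the miRNAs, the ratio of ath-miR160a-5p to ath-miR167a-5p was 0.0628, 0.0222 and 0.0589 in prp4k3 and 0.0297, 0.0280 and 0.0312 in Col-0. It was above Col-0 in 2 prp4k3 libraries and below it in replicate 2 (log2 difference 0.55, exact permutation p = 0.4, adjusted 0.48), and the difference was 1.04 without that library but 0.29 without prp4k3 replicate 1 and 0.34 without prp4k3 replicate 3. The ratio of ath-miR167d to ath-miR167a-5p overlapped (log2 difference -0.13, exact permutation p = 0.8) and turned to 0.13 without prp4k3 replicate 2.

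**Figure D3:**
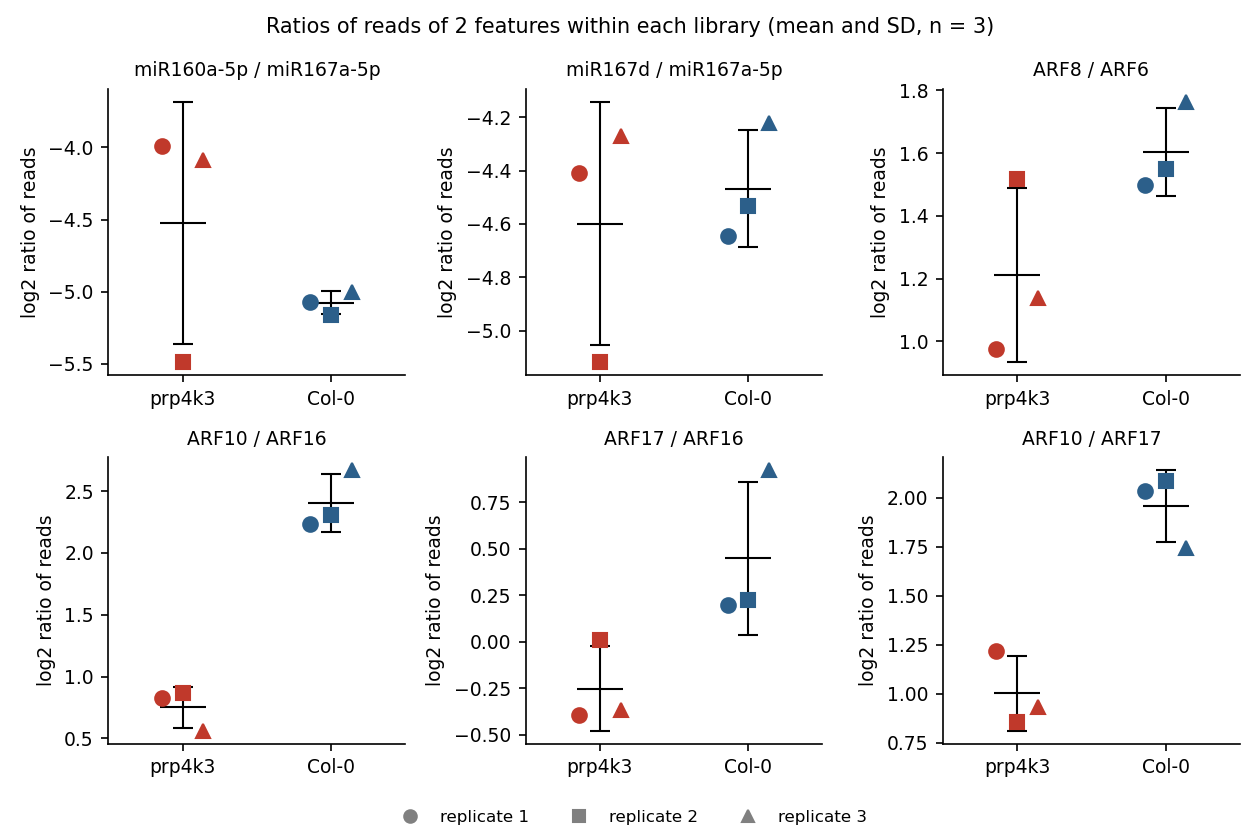
Log2 ratio of the reads of 2 members within each library (vertical axes do not start at 0), with points for the 3 prp4k3 and 3 Col-0 libraries and bars for the mean and SD. The ratio of ARF10 to ARF16 is lower in all prp4k3 libraries (mean 0.75) than in all Col-0 libraries (mean 2.40), and both miRNA ratios overlap with prp4k3 replicate 2 the lowest.

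The other ARF genes give the frame for these values. Of 18 further ARF genes, 10 passed the filter on low counts, with 3 called higher, 4 called lower and 3 not called, close to the 65.8% called among all tested features. Their median log2 fold change was -0.19. ARF5, the activator that patterns embryos and veins, rose by 2.03 ± 0.16 on the log2 scale, with 16.5, 17.5 and 14.3 CPM in prp4k3 and 3.32, 3.80 and 4.74 CPM in Col-0 (adjusted p = 5.24e-06). ARF7, an activator of tropic growth and lateral roots, rose by 1.15 ± 0.12, with 29.1, 34.3 and 30.0 CPM in prp4k3 and 13.1, 14.3 and 14.7 CPM in Col-0 (adjusted p = 2.15e-05). Neither of them pairs with miR160 or miR167, and both stood further from 0 than any of the 5 targets.

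ARF2, a repressor linked to leaf ageing and organ size, rose by 0.45 ± 0.10 (adjusted p = 0.00241). ARF18 fell by 0.57 ± 0.15 (adjusted p = 0.00662) and ARF1 by 0.33 ± 0.10 (adjusted p = 0.015). ARF11 and ARF3 were called lower at -0.53 ± 0.21 and -0.33 ± 0.12 (adjusted p = 0.0453 and 0.0332), but ARF1, ARF3 and ARF11 kept their sign and lost the call in 2, 6 and 8 alternatives, and all 4 of the lowered genes stood above 0 under total-count scaling. ARF2, ARF3 and ARF4 are the targets of the TAS3 small RNAs, and ARF4 was not called at -0.05 ± 0.13, nor were ARF9 (0.14 ± 0.21) and ARF19 (-0.36 ± 0.18). Among the 8 that did not pass, ARF14 had 1 count in Col-0, and ARF12, ARF13, ARF15, ARF20, ARF21, ARF22 and ARF23 had 0 counts in every library. On the TMM scale ARF10 and ARF8 were the lowest of the 15 tested ARF mRNAs. A change of scaling shifts all genes by nearly the same amount, so their unchanged order is no separate evidence.

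**Figure D4:**
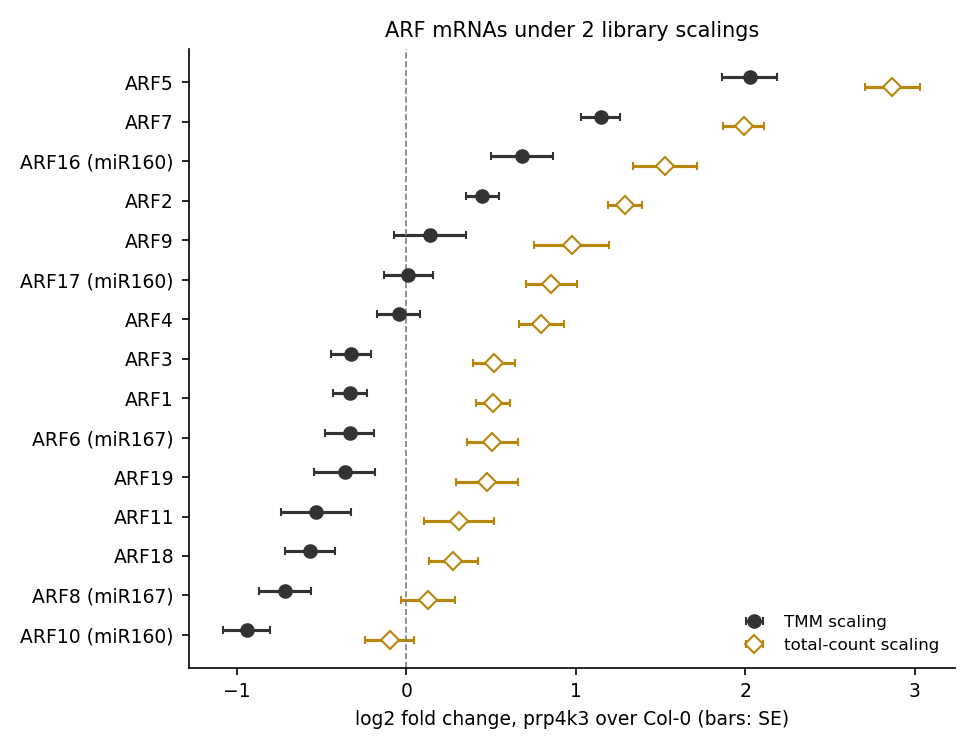
Log2 fold change of prp4k3 over Col-0 (horizontal axis, bars show the SE) for the 15 tested ARF mRNAs with TMM scaling (filled circles) and total-count scaling (open diamonds). A change of scaling shifts all genes by nearly the same amount, so their order stays the same while the position of 0 moves. ARF10 stood at -0.94 and -0.10 and ARF16 at 0.68 and 1.52.

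Genes upstream and downstream of the ARF proteins were read from lists of the auxin pathway. Of 29 Aux/IAA genes, which encode the repressors that bind ARF proteins, 22 were tested, with 0 called higher, 12 called lower and 10 not called, and a median log2 fold change of -0.59. The 12 called are a smaller share than the 65.8% of all tested features called in either direction. By direction, 12 lower of 22 is a larger share than the 31.9% of all tested features called lower, beside 33.9% called higher. The list was not tested as a set. IAA17 (AXR3) fell by 1.93 ± 0.11, with 15.9 ± 0.263 CPM in prp4k3 and 60.7 ± 5.78 CPM in Col-0 (adjusted p = 1.03e-06). IAA8 fell by 1.40 ± 0.10 (adjusted p = 2.79e-06). Under total-count scaling 9 Aux/IAA genes were called higher and 4 lower, beside 67.1% and 9.81% of all tested features, and IAA17 and IAA8 were still lower there, at -1.09 and -0.56.

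GH3 enzymes, which join auxin to amino acids and include early auxin-induced members, had 7 of 9 genes tested, with 4 called higher and 1 lower and a median of 0.91. The 5 called of 7 are near the 65.8% of all tested features. By direction, 4 higher of 7 is a larger share than the 33.9% of all tested features called higher, beside 31.9% called lower. GH3.3 rose by 2.75 ± 0.19, with 11.5 ± 0.696 CPM in prp4k3 and 1.71 ± 0.439 CPM in Col-0 (adjusted p = 2.3e-06). GH3.2 rose by 2.84 ± 0.23, with 4.86 ± 0.793 CPM in prp4k3 and 0.670 ± 0.00779 CPM in Col-0 (adjusted p = 5.61e-06). It passed the filter on low counts only through the prp4k3 libraries, which limits what its call shows. GH3.9 fell by 0.92 ± 0.14 (adjusted p = 0.000268), a call that total-count scaling removed (-0.08, adjusted p = 0.613). Of the 22 tested Aux/IAA genes 12 were called lower and 10 were not called. IAA1, IAA2 and IAA19 were among those not called, at -0.28, -0.07 and 0.60. The Aux/IAA and the GH3 lists had medians on opposite sides of 0 with TMM, which single genes need not follow. Under total-count scaling both medians were above 0, at 0.26 and 1.75. The median of all tested features was 0.86 on that scale, and the 2 lists lay on opposite sides of it.

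Receptor, synthesis and transport genes had medians below 0 with TMM, which became -0.05, -0.05 and -0.03 when libraries were scaled by total counts. These medians were still below that of all tested features on the total-count scale, 0.86. Of 6 TIR1/AFB receptor genes 0 were called higher and 5 lower (median -0.89), where 31.9% of all tested features were called lower. TIR1 fell by 1.23 ± 0.14 (adjusted p = 5.56e-05) and AFB5 by 0.97 ± 0.12 (adjusted p = 8.29e-05), while under total-count scaling TIR1 was the 1 receptor gene still called lower, at -0.38 (adjusted p = 0.0323), and AFB5 stood at -0.13 (adjusted p = 0.371). Of 14 synthesis genes 6 were tested, with 1 higher and 3 lower (median -0.89), a called share that does not stand out from the 65.8% of all tested features. By direction, 33.9% of all tested features were called higher and 31.9% lower. TAR2, an aminotransferase of the first step, fell by 2.095 ± 0.14, with 4.11 ± 0.602 CPM in prp4k3 and 17.6 ± 0.821 CPM in Col-0 (adjusted p = 2.02e-06). YUC6, a monooxygenase of the next step, fell by 1.303 ± 0.21 (adjusted p = 0.000468), and missed the threshold with total counts (-0.46, adjusted p = 0.079). YUC5 rose by 1.69 ± 0.54 (adjusted p = 0.0199) from few reads, 42 in prp4k3 and 8 in Col-0, and lost the call without prp4k3 replicate 2 or Col-0 replicate 1 or 2 (adjusted p = 0.0563, 0.0684 and 0.0898). It also passed the filter on low counts only through the prp4k3 libraries.

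Of 14 transport genes 12 were tested, with 1 higher and 8 lower (median -0.87), or 4 higher and 3 lower under total-count scaling. The shares over all tested features were 33.9% higher and 31.9% lower with TMM, and 67.1% and 9.81% with total counts. The auxin influx carriers LAX1 and AUX1 fell by 1.89 ± 0.11 and 1.75 ± 0.11 (adjusted p = 1.02e-06 and 1.54e-06) and scaling by total counts left them at -1.05 and -0.91. ABCB1, an efflux transporter, rose by 0.84 ± 0.16 (adjusted p = 0.00106). In the list of TOPLESS corepressors with LBD and HAT2 response genes, 6 of 9 were tested, with 3 called higher and 0 lower (median 0.46), a smaller called share than the 65.8% of all tested features. By direction, 3 higher of 6 is a larger share than the 33.9% of all tested features called higher. The corepressor genes TPR2 and TPR4 rose by 0.96 ± 0.11 and 0.56 ± 0.10 (adjusted p = 5.72e-05 and 0.000849). LBD29 had 0 counts in all libraries, and LBD16 and LBD18 did not pass the filter.

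**Figure D5:**
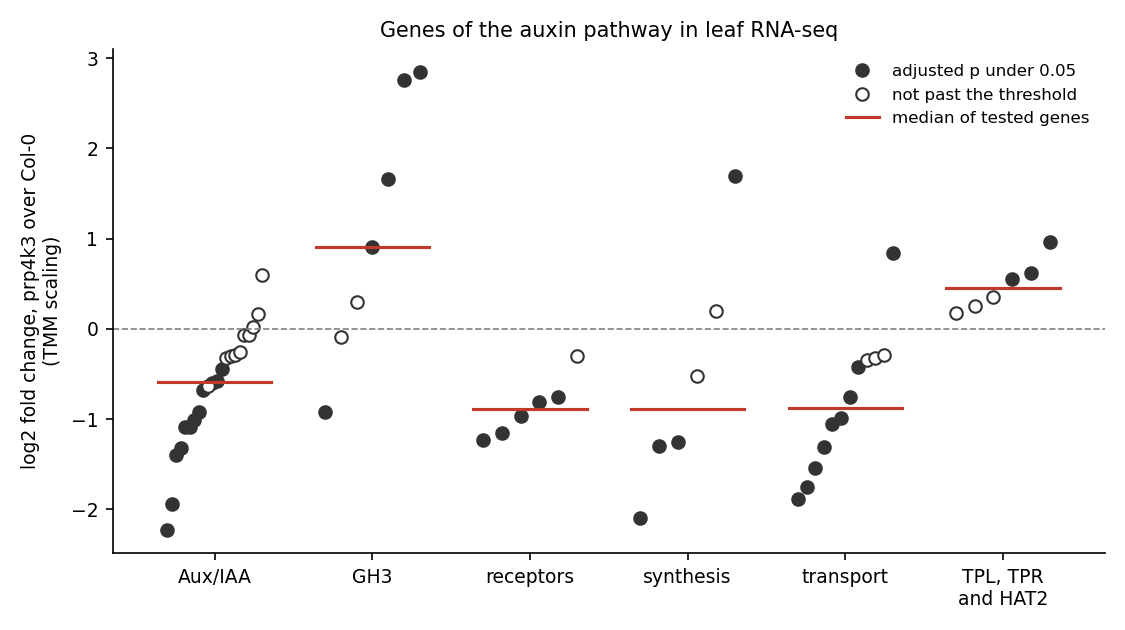
Log2 fold change of prp4k3 over Col-0 with TMM scaling (vertical axis) for every tested gene of 6 auxin lists, filled where the adjusted p was under 0.05, with a line at the median. Aux/IAA, receptor, synthesis and transport genes have medians between -0.89 and -0.59 and the GH3 and corepressor lists medians of 0.91 and 0.46. Under total-count scaling the Aux/IAA median was 0.26 and those of the receptor, synthesis and transport lists were -0.05, -0.05 and -0.03. The median of all tested features was then 0.86.

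Within these lists, the gene with the nearest pattern to each ARF target was found by the root mean square difference of mean-centred log2 CPM over 6 libraries, among 76 genes. PIN3, an auxin efflux carrier, lay nearest to ARF10 (0.0969), IAA26 nearest to ARF6 (0.11), YUC2 nearest to ARF8 (0.126), TAA1 nearest to ARF17 (0.131) and GH3.5 nearest to ARF16 (0.202). These distances describe 6 libraries in 2 groups and were not tested.

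The authors' deposited table gives the same signs for the members. In the authors' deposited table the log2 fold changes were -0.302 for ARF6, -0.683 for ARF8, -0.909 for ARF10, 0.715 for ARF16 and 0.045 for ARF17, with adjusted p values of 0.144, 0.00023, 1.18e-07, 0.00126 and 0.846. For the miRNAs the authors' deposited table has log2 fold changes of 0.478 for ath-miR160a-5p, -0.225 for ath-miR167a-5p and -0.335 for ath-miR167d, with adjusted p values of 0.582, 0.563 and 0.663.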

How the data were processed

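Trizol was used for the isolation of leaf RNA, and the TruSeq kit for stranded total RNA for the RNA-seq libraries, per the labels' protocols. The submitters' processing notes name TopHat2, SAMtools, HTSeq and edgeR without versions; the genome build and the strand setting of the counting are not given in the sources used. The deposited read counts of 12 libraries were tested. Per the file headers, the authors also deposited scaled values (a score, in whole numbers), their mean (a signal), a fold ratio, a log2 fold change, a p-value with its adjusted value, and dispersions. The score, signal and dispersions were not used.

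Each whole table was fitted in edgeR 4.0.16 (R 4.3.3) after filterByExpr and TMM scaling, with genotype as the term of a quasi-likelihood test and Benjamini-Hochberg adjustment over 18609 RNA-seq features or 215 miRNA rows. Replicates were not blocked. The small RNA table lists miRNAs alone, so a scaled miRNA level is relative to the other miRNAs. In ratios, 0.5 was added to each count. The fit was run on simulated counts with the same base composition in every library and changes balanced in direction. That run could not probe the choice between TMM and total-count scaling. Every pair of replicates differed beyond sampling noise, with a chi-square per degree of freedom of at least 7.32. Identical counts were shared by 54 miRNA rows in 22 sets, each row having 20 reads or more. No ARF member overlaps another gene in the TAIR10.1 gene table, which otherwise supplied names only.

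Members and lists were chosen with earlier results of these data known. Named genes were the members, the other rows of both miRNA families, the tested MIR160, MIR167 and ARF genes, the nearest listed gene to each ARF member, 3 loci checking the line, and in each auxin list up to 2 called rises and 2 called falls with the lowest adjusted p. Other genes, such as IAR3, the flower and apex markers and those at 0 counts, were picked once their values were known. The alternatives comprised RLE, upper-quartile (small RNA) and total-count scaling, 2 other filters on low counts, DESeq2 1.42.0, limma-voom (limma 3.58.1), a replicate block, tables without organelle and rRNA genes, identical miRNA rows kept once, a pseudocount of 5 in ratios, and leaving out each library. Total-count scaling without organelle and rRNA genes was chosen after seeing the data.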

Additional observations from a re-analysis of the deposited data

How the results depend on the processing

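Total-count scaling changed the most results. It called 12490 RNA-seq features higher and 1825 lower, 25 miRNA rows lower, and 3 ARF targets higher and 0 lower. On that scale log2 fold changes stood at 0.51 for ARF6, 0.13 for ARF8, -0.10 for ARF10 (no longer called) and 0.85 for ARF17 (called), and turned to 0.51 for ARF1, 0.52 for ARF3, 0.80 for ARF4, 0.31 for ARF11, 0.28 for ARF18, 0.48 for ARF19, 0.008 for MIR167D, 0.16 for AT3G25840 and 0.43 for AT1G13350. With organelle and rRNA genes removed before that scaling, 10382 features were called higher and 2695 lower, with 2 ARF targets higher and 1 lower, and ARF6 stood at 0.24, ARF8 at -0.14 (not called) and ARF17 at 0.59 (called). ARF16 was called higher throughout, and ath-miR167d was called in none of its 15 alternatives. ath-miR160a-3p turned to 0.0022 with RLE, 0.0126 with upper-quartile factors, 0.0017 with DESeq2 and 0.0212 with identical rows kept once. The cause of these shifts was not tested.

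Leaving out 1 library at a time gave log2 fold changes of -0.44 to -0.24 for ARF6, -0.087 to 0.087 for ARF17, -0.13 to 0.005 for ARF4, -0.047 to 0.42 for ARF9, 0.29 to 0.64 for ath-miR160a-5p, -0.40 to 0.11 for ath-miR167a-5p and for ath-miR167b, -0.54 to -0.19 for ath-miR167d, -0.17 to 0.15 for ath-miR160a-3p, -0.28 to 0.034 for ath-miR167a-3p and -0.27 to 0.068 for ath-miR390a-3p. The log2 ratio of ath-miR167d to ath-miR167a-5p differed by -0.30 to 0.13, that of ath-miR160a-5p to ath-miR167a-5p by 0.29 to 1.04 and that of ARF17 to ARF16 by -0.83 to -0.46, and 24 to 51 miRNA rows were called lower.

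Same-numbered replicates did not deviate together (r between -0.244 and 0.046), and no library correlated best with its own number. With the replicate block, 6122 RNA-seq features were called higher and 5753 lower, 30 miRNA rows higher and 39 lower, and 1 ARF target higher and 2 lower. ARF3 (-0.32) and ARF11 (-0.55) were not called there. Depth limits the rare miRNAs most, with 3 reads standing for 2.59 to 9.82 CPM in the small RNA libraries.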
